A study of Mus musculus with 6 samples.

Results

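The genes described here carry fatty acids into the muscle fibre and through mitochondrial β-oxidation. They were chosen by symbol as a list of 10 genes, Cd36, Lpl, Acsl1, Cpt1b, Cpt2, Acadm, Acadvl, Acadl, Hadha and Hadhb, out of 24054 genes in the count table. All 10 were among the 12660 genes tested. RNA-seq was performed on gastrocnemius (GAS) muscle of male C57BL/6 mice, with 3 libraries from IRF4 knockout (MI4KO) and 3 from IRF4 overexpression (MI4OE) mice. MI4KO mice carried floxed Irf4 alleles and MI4OE mice a Rosa26-LSL-IRF4 transgene, and both also carried Myl1-cre, a driver selective for skeletal muscle, so the other cells of the tissue are not its target. High fat diet is written on the labels of both groups, but the study's text has mice on chow, and the diet is therefore uncertain. The age of the mice was not given in the sources used here. No GAS library from a mouse with unaltered Irf4 was analysed here, so each difference below lies between a knockout and an overexpressor.

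Muscle takes fatty acids from blood lipoproteins and from albumin. Lipoprotein lipase (Lpl) releases them from triglyceride at the capillary wall, CD36 helps them across the membrane, and the acyl-CoA synthetase ACSL1 activates them. Long acyl chains then enter mitochondria on carnitine, which CPT1B attaches at the outer membrane and CPT2 removes at the inner one. Acyl-CoA dehydrogenases for very long (Acadvl), long (Acadl) and medium (Acadm) chains start each round of β-oxidation, and the trifunctional protein, built from the subunits HADHA and HADHB, completes it for long chains. Slow-twitch and other oxidative fibres depend more on this pathway than glycolytic fibres do.

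Total expected counts ranged from 18828605 to 29239585 per library. Irf4 had 6, 0 and 2 counts in MI4KO and 2864, 10557 and 5911 counts in MI4OE replicates 1, 2 and 3, in keeping with the genotype labels. Acta1, the skeletal α-actin, lay between 39559 and 55108 CPM (counts scaled to library size by TMM) in the 6 libraries. It marks skeletal muscle and cannot tell GAS from other muscles, so the dissection was not checked by it. MI4OE replicate 1 stood apart from the rest. The TPM (abundance per transcript length, scaled to library size) of 11 slow-fibre markers summed to 11229 in that library and to 36.1 and 1142 in MI4OE replicates 2 and 3, against 30.9 to 243 in MI4KO. The labels gave no batch, and nothing says whether replicates were collected together. Differences of the 10 genes are therefore given with and without MI4OE replicate 1.

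The 10 genes had higher mean levels in MI4OE than in MI4KO, but none of these differences passed the test against the spread between replicates. The fitted log2 fold change was above 0 for 10 of 10 genes, as it was for 50% of all genes tested, with a median of 0.59 against 0.00 for all genes. At an adjusted p under 0.05 by edgeR's quasi-likelihood test, 0 of the 10 genes and 0.0237% of all genes were called. Both edgeR's exact test and DESeq2 also called 0 of the 10, against 108 and 111 of all genes. By a criterion of 1.5-fold with an unadjusted p under 0.05, 0 of the 10 genes were called, against 6.64% of all genes (4.36% higher and 2.28% lower in MI4OE). Without MI4OE replicate 2 that criterion called 6 of them, Cpt1b, Cpt2, Acadvl, Acadl, Hadha and Hadhb, and 10.2% of all genes. An unadjusted p under 0.05 was reached by 0 of the 10 genes and 7.58% of all genes. The groups did not overlap in 0 of the 10 genes and in 12.9% of all genes. Without MI4OE replicate 1 the median log2 fold change of the 10 genes was 0.10, and 6 of them were higher in MI4OE.

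**Figure D1:**
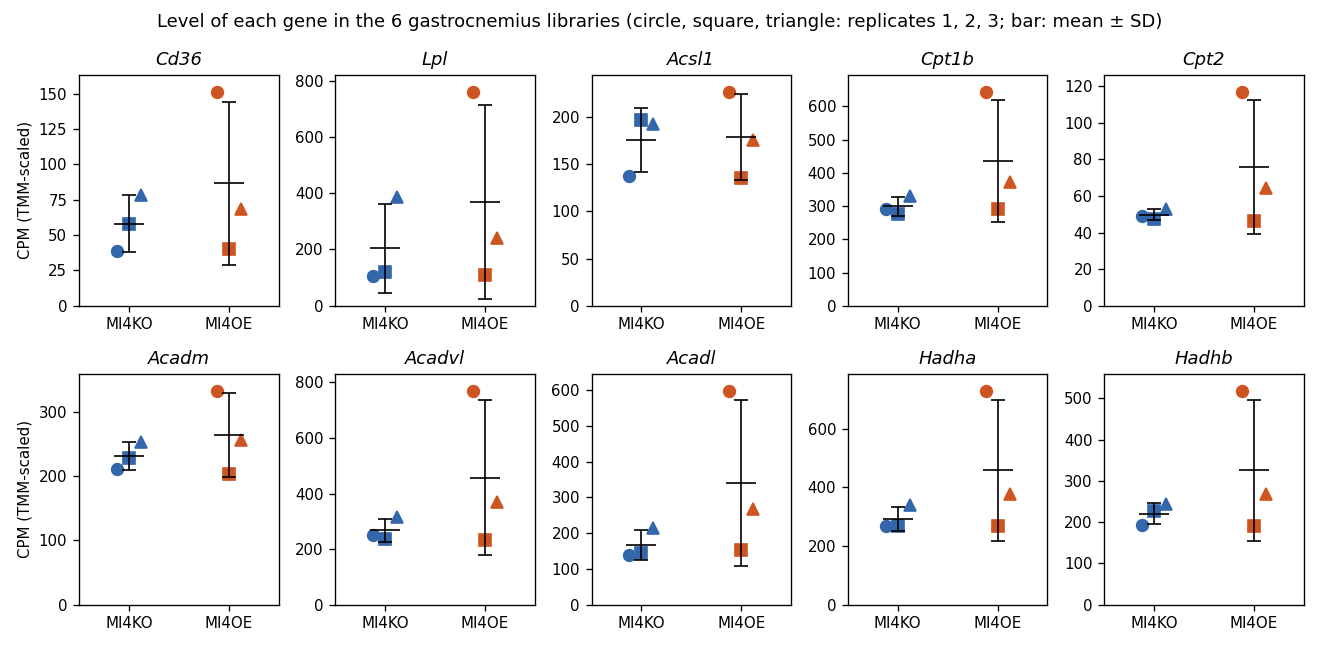
TMM-scaled CPM of the 10 genes on linear axes from 0 or below, with 1 point per library (circle, square and triangle for replicates 1, 2 and 3) and the mean ± SD of 3 libraries per group. MI4OE replicate 1 (orange circle) is the highest library in 10 of 10 panels, and MI4OE replicate 2 lies within or below the MI4KO range in each.

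Single libraries held much of the difference. MI4OE replicate 1 was the highest library for 10 of 10 genes, as it was for 31.5% of all genes tested. MI4OE replicate 3 was second highest for 7 genes and lay above each MI4KO library for the same number. MI4OE replicate 2 was below the highest MI4KO library for 10 of 10 genes and below each MI4KO library for 5. Expressed as log2 CPM relative to each gene's own mean, the 10 genes averaged -0.47, -0.32 and 0.09 for the MI4KO libraries in order of replicate, and 1.05, -0.47 and 0.12 for the MI4OE libraries. The SD of log2 CPM was larger within MI4OE than within MI4KO for 10 of 10 genes. Shares of all genes were not counted for this SD or for the places of MI4OE replicates 2 and 3.

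With all 6 libraries, the genes of uptake and activation included both the widest spread, that of Lpl, and the smallest difference, that of Acsl1. Cd36, which encodes the fatty acid translocase, had 38.5, 57.6 and 78.3 CPM in the MI4KO libraries and 151, 40.4 and 68.1 CPM in the MI4OE libraries. One MI4OE library was thus above the MI4KO range, while the other two fell inside it. Mean levels were 58.1 ± 19.9 CPM (SD, n = 3) without IRF4 and 86.6 ± 57.7 CPM (SD, n = 3) with its overexpression. The log2 fold change was 0.57 (SE 0.48, adjusted p = 0.844), and it became -0.10 without MI4OE replicate 1.

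Lpl, the lipase that frees fatty acids from circulating triglyceride, varied most of the 10 genes. It had 106, 119 and 386 CPM in the MI4KO libraries and 760, 108 and 241 CPM in the MI4OE libraries. High libraries therefore occurred in both groups, MI4KO replicate 3 in the knockout and MI4OE replicate 1 in the overexpressor. The highest library held 7.16 times the level of the lowest. On the log2 scale MI4OE differed from MI4KO by 0.86 (SE 0.76, adjusted p = 0.851). It became -0.22 without MI4OE replicate 1 and 1.70 without MI4KO replicate 3, and 0.62 without both, a combination chosen after the data were seen. RSEM gave Lpl fractional counts, which means that part of its reads also matched another transcript.

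Lpl and Cd36 are also expressed by adipocytes, and Cd36 by capillary endothelium. In bulk muscle, fewer cells of a type and less RNA per cell cannot be told apart. The 10 adipocyte markers summed to 377, 973 and 2117 TPM in MI4KO and 747, 405 and 352 TPM in MI4OE, with Adrb3 listed at 0 in at least 1 library. Of the 8 tested, 7 were lower in MI4OE, 6 of them at an unadjusted edgeR p under 0.05 and 0 at an adjusted one, with a median of -3.60 on the log2 scale and -3.23 without MI4OE replicate 1. The sum rests mostly on Fabp4, with a mean of 609 TPM and a log2 fold change of -0.66. Fabp4 had 128, 212 and 398 CPM in the MI4KO libraries and 260, 104 and 104 CPM in the MI4OE libraries. Plin1, Cidec, Cfd, Lep and Retn were lowest in MI4OE replicate 1, whereas Aqp7 was highest there. Adipoq, the defining adipocyte marker, had 9.58, 17.7 and 81.4 CPM in the MI4KO libraries and 0.886, 5.94 and 1.37 CPM in the MI4OE libraries. MI4KO replicate 3 thus had the most Adipoq and the second highest Lpl, while MI4OE replicate 1 had the least Adipoq and the highest Lpl. The 12 endothelial markers summed to 96.3 to 169 TPM in MI4KO and 197 to 347 TPM in MI4OE, so the sums did not overlap. Of these markers 12 of 12 were higher in MI4OE, 8 at an unadjusted p under 0.05 and 0 at an adjusted one, with a median of 0.77 on the log2 scale and 0.48 without MI4OE replicate 1. Pecam1 had 28.3, 39.7 and 37.0 CPM in the MI4KO libraries and 77.2, 39.6 and 43.1 CPM in the MI4OE libraries. The 10 fibroblast markers summed to 164 to 250 TPM in MI4KO and 273 to 362 TPM in MI4OE, again without overlap. Of them 9 were higher in MI4OE, 7 at an unadjusted p under 0.05 and 0 at an adjusted one. Their median was 0.76 on the log2 scale, and 0.62 without MI4OE replicate 1. The 9 macrophage markers in the table summed to 64.2 to 120 TPM in MI4KO and 45.6 to 97.1 TPM in MI4OE, with 2 higher and 7 lower. The part of these cells in the levels of Lpl and Cd36 was not tested.

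Acsl1, which activates long-chain fatty acids with coenzyme A, differed least in the fit of all 6 libraries. Its level was 137, 197 and 193 CPM in MI4KO and 227, 136 and 175 CPM in MI4OE, so MI4OE replicates 1 and 2 lay just above and just below the MI4KO range. The fitted log2 difference was 0.03 (SE 0.25, adjusted p = 0.992), with a 95% interval from -0.55 to 0.60. As a fold this interval runs from 0.685 to 1.52. Without MI4OE replicate 1 the log2 difference of Acsl1 was -0.18, and Acadm then differed least, at -0.0095.

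Both enzymes of the carnitine shuttle were closely grouped in MI4KO and spread in MI4OE. Cpt1b, the muscle carnitine palmitoyltransferase at the outer membrane, was at 291, 276 and 331 CPM in MI4KO. It was at 644, 292 and 374 CPM in MI4OE, so that replicates 1 and 3 lay above the MI4KO range and replicate 2 inside it. The log2 fold change was 0.54 (SE 0.30, adjusted p = 0.739). Cpt2, its inner-membrane partner, had 49.2, 47.1 and 52.9 CPM in the MI4KO libraries and 117, 46.3 and 64.6 CPM in the MI4OE libraries. On the log2 scale MI4OE differed from MI4KO by 0.61 (SE 0.32, adjusted p = 0.726). Without MI4OE replicate 1 these log2 fold changes were 0.15 for Cpt1b and 0.15 for Cpt2. The annotation used by the authors also held a read-through transcript of Chkb and Cpt1b, ChkbCpt1b, with 0 to 258 counts per library. It shares sequence with Cpt1b, and RSEM divided reads between them, but it held few counts beside the 6975 to 13086 of Cpt1b.

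The acyl-CoA dehydrogenases differed among themselves. Acadl, the long-chain enzyme, had the largest difference of the 10 genes in the fit of all 6 libraries. It had 139, 144 and 215 CPM in the MI4KO libraries and 598, 151 and 268 CPM in the MI4OE libraries, with means of 166 ± 42.3 CPM against 339 ± 232 CPM (SD, n = 3 each). MI4OE replicates 1 and 3 were above all MI4KO libraries, and replicate 2 was below MI4KO replicate 3. The fitted log2 difference was 1.03 (SE 0.47, adjusted p = 0.685), and its 95% interval ran from -0.07 to 2.13. Acadl alone of the 10 met the 1.5-fold criterion with edgeR's exact test, with DESeq2 and with no filter on low counts, settings in which 7.87%, 7.62% and 6.71% of all genes met it. It was 0.34 without MI4OE replicate 1.

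Acadvl, the very-long-chain enzyme of the inner membrane, had 250, 236 and 316 CPM in the MI4KO libraries and 770, 232 and 370 CPM in the MI4OE libraries. Its 3 highest libraries came in the order seen for Acadl, and MI4OE replicate 2 was its lowest. The log2 fold change was 0.77 (SE 0.41, adjusted p = 0.729), and it was 0.17 without MI4OE replicate 1. Acadm, the medium-chain enzyme, had 211, 227 and 254 CPM in the MI4KO libraries and 333, 202 and 257 CPM in the MI4OE libraries. Its spread was narrower, with the highest library at 1.64 times the lowest, against 4.30 times for Acadl and 3.33 times for Acadvl. The log2 fold change of Acadm was 0.19 (SE 0.22, adjusted p = 0.880), and -0.0095 without MI4OE replicate 1.

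Hadha and Hadhb encode the α and β subunits of the mitochondrial trifunctional protein, which carries the hydratase and hydroxyacyl-CoA dehydrogenase activities on α and the thiolase on β. Hadha had 267, 268 and 338 CPM in the MI4KO libraries and 730, 267 and 376 CPM in the MI4OE libraries. Hadhb had 192, 226 and 243 CPM in the MI4KO libraries and 519, 191 and 268 CPM in the MI4OE libraries. In both genes MI4OE replicates 1 and 3 lay above MI4KO, and replicate 2 was level with the lowest MI4KO libraries. The log2 fold changes were 0.65 (SE 0.36) for Hadha and 0.56 (SE 0.36) for Hadhb, with adjusted p of 0.740 and 0.787. Without MI4OE replicate 1 they were 0.14 and 0.06.

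**Figure D2:**
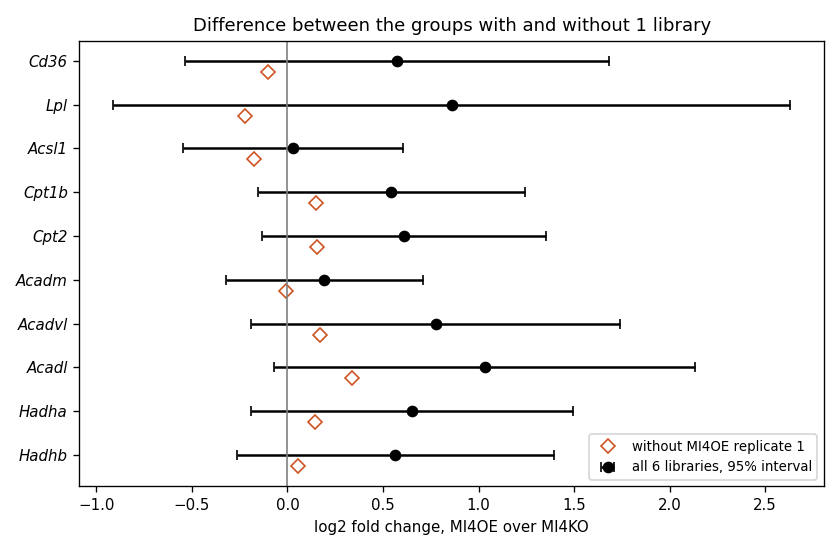
Log2 fold change of MI4OE over MI4KO for the 10 genes, with all 6 libraries (black, bars are 95% intervals of edgeR's quasi-likelihood fit) and without MI4OE replicate 1 (open diamonds). Each of the 10 intervals includes 0, and the value without that library is nearer to 0 than the black point for 9 genes, the exception being Acsl1.

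The levels of both subunits were compared within libraries, where scaling has no part. The TPM of Hadha divided by that of Hadhb was 0.718, 0.613 and 0.717 in MI4KO and 0.724, 0.722 and 0.723 in MI4OE replicates 1, 2 and 3. The ratio was thus nearly constant in 5 libraries while the CPM of Hadha spanned 2.74-fold and that of Hadhb 2.72-fold, and MI4KO replicate 2 was the exception. The groups did not overlap, yet the difference of log2 ratios was 0.09, with an SD of 0.131 in MI4KO and 0.00193 in MI4OE. It was 0.01 without MI4KO replicate 2. An exact two-sided permutation test gave p = 0.1, the smallest that 3 against 3 libraries allow, and an adjusted p of 0.6 over the 6 ratios compared.

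In the RefSeq annotation of the mouse genome Hadha and Hadhb start back to back, on opposite strands, with 272 bases between their start sites. The interval is printed because both subunit genes have it as upstream sequence. It is given on the plus strand of GRCm38.p6 (chr5:30154981-30155252), with Hadha leaving to the left and Hadhb to the right. Capitals mark the 2 GC boxes (GGGCGG, searched on both strands), the motif of Sp1-type factors.
Hadha-Hadhb interval: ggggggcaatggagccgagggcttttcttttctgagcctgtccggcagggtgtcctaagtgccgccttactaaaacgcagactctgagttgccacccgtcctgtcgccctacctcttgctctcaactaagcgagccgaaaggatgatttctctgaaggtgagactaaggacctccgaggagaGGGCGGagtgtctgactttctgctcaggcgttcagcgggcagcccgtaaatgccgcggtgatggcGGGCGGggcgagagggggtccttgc
The interval was 60.3% G and C, and held 0 matches to CCAAT and 0 to AGGTCA, the core motif of nuclear receptors such as PPAR and ERR.

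The upstream sequences of the 3 acyl-CoA dehydrogenases are set beside it because these enzymes share a reaction and differed in spread. Each line gives the 150 bases before the RefSeq start site in GRCm38.p6, read along the gene, from chr1:66863310-66863459 for Acadl, chr11:70015429-70015578 for Acadvl and chr3:153944644-153944793 for Acadm, all on the minus strand. Capitals mark GC boxes (GGGCGG or its complement CCGCCC) and AGGTCA.
Acadl: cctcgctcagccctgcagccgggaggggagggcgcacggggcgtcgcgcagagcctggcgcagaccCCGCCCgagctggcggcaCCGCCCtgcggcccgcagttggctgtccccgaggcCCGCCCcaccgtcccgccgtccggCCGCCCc
Acadvl: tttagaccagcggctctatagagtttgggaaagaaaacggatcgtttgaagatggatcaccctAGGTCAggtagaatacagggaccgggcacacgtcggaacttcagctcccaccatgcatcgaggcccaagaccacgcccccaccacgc
Acadm: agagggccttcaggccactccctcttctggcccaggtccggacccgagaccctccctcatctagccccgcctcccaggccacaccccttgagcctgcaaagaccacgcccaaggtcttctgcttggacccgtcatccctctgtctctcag
The Acadl stretch was 82.0% G and C and held 4 GC boxes. The Acadvl stretch held 1 AGGTCA and 0 GC boxes at 55.3% G and C, and the Acadm stretch held neither motif at 64.7%. The AGGTCA of Acadm lay outside the stretch shown, at the far end of the 250 bases searched and on the opposite strand.

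RefSeq promoter sequences were matched for 8 of the 10 genes, with 9 windows since Acsl1 has more than 1, and Lpl and Cpt1b were not matched. In the 250 bases before the start, GC boxes were found in 6 of 9 windows, against 32.7% of 32851 windows of all genes. The windows of Hadha and Hadhb overlap, and the box of Hadha is also one of those of Hadhb, so 1 site stands in 2 of the 6. CCAAT was found in 2 of 9 windows (Acsl1 and Cd36), against 33.8% of all. AGGTCA was found in 3 of 9 windows (Acadm, Acadvl and Cd36), against 14.0% of all. The interferon-stimulated response motif, to which IRF proteins bind, was searched as 2 copies of GAAA spaced by 2 bases. It was found in 0 of 9 windows and 2.98% of all, and the composite motif of ETS and IRF proteins, GGAA and GAAA spaced by 2 bases, in 0 of 9 and 2.30% of all. The direct repeat of PPAR, 2 copies of AGGTCA spaced by 1 base, was found in 0 of 9 windows and 0.0335% of all, and TCAAGGTCA, the motif of ERR, in 0 of 9 and 0.387% of all. AGGTCA lies within the last 2 motifs, both strands were searched, and a lack of matches says only that these letters are not in these windows.

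The other ratios within libraries overlapped between the groups. Acadl divided by Acadm was 0.700, 0.672 and 0.899 in MI4KO and 1.91, 0.795 and 1.11 in MI4OE. Long-chain dehydrogenase mRNA was therefore above medium-chain mRNA in 2 of 6 libraries, MI4OE replicates 1 and 3. Acadvl divided by Acadm was 1.11, 0.977 and 1.17 in MI4KO and 2.174, 1.07 and 1.35 in MI4OE. The exact permutation p was 0.2 for the former ratio and 0.3 for the latter, and the adjusted p was 0.6 for each. The difference of log2 ratios was 0.66 for Acadl to Acadm and 0.44 for Acadvl to Acadm, and without MI4OE replicate 1 it was 0.32 and 0.16. Cpt1b divided by Cpt2 stayed between 4.43 and 5.06 in the 6 libraries, with an exact permutation p of 0.6 (adjusted 0.7). Cd36 divided by Lpl ranged from 0.237 to 0.571, lowest in MI4OE replicate 1 and MI4KO replicate 3, with an exact permutation p of 0.7 (adjusted 0.7).

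**Figure D3:**
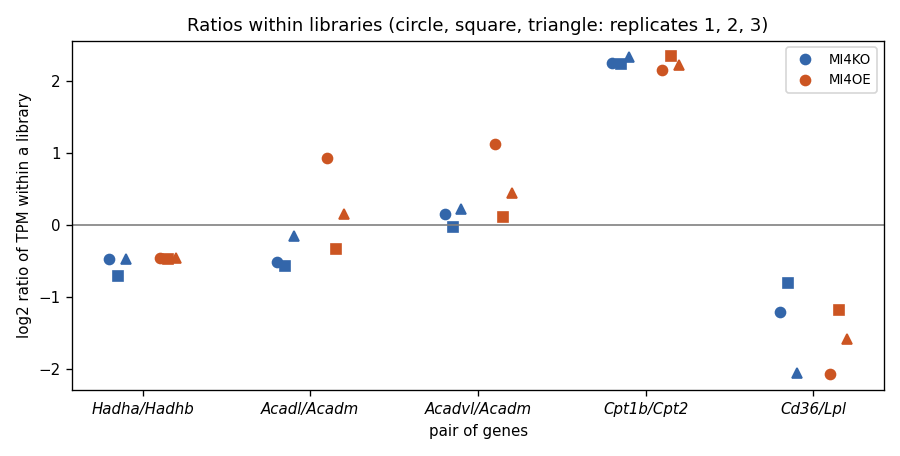
Log2 ratio of TPM within each library for 5 pairs of genes, with MI4KO in blue and MI4OE in orange and replicates 1, 2 and 3 as circle, square and triangle. Hadha over Hadhb and Cpt1b over Cpt2 are tightly grouped apart from Hadha over Hadhb in MI4KO replicate 2, whereas Acadl over Acadm reaches 0.93 in MI4OE replicate 1 and -0.57 in MI4KO replicate 2.

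Levels were compared between genes in TPM, which is per transcript length. Mean TPM over the 6 libraries was 273 for Acadvl, 223 for Hadhb, 215 for Acadl, 208 for Cpt1b, 201 for Acadm, 157 for Hadha, 112 for Lpl, 74.8 for Acsl1, 44.1 for Cpt2 and 34.1 for Cd36. Cd36 ranged from 15.1 to 67.0 TPM and Acadvl from 157 to 545 TPM, so these ends of the order did not overlap. Each gene overlapped its neighbours in this order in their ranges over libraries, and the order of the group means was not the same in both groups. Acadvl was highest in both, at 201 TPM in MI4KO and 345 TPM in MI4OE. In MI4KO it was followed by Acadm (186 TPM), Hadhb (180 TPM), Cpt1b (167 TPM) and Acadl (141 TPM), and in MI4OE by Acadl (288 TPM), Hadhb (267 TPM), Cpt1b (248 TPM) and Acadm (217 TPM), so that Acadl and Acadm exchanged places. That exchange rests on MI4OE replicate 1, without which the MI4OE mean of Acadl was below that of Acadm. In TPM 10 of 10 genes had the higher mean in MI4OE, with Acadl at 141 ± 41.9 TPM (SD, n = 3) in MI4KO and 288 ± 173 TPM (SD, n = 3) in MI4OE, and Acsl1 at 73.8 ± 24.1 TPM (SD, n = 3) and 75.7 ± 13.1 TPM (SD, n = 3).

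Transcript estimates were read for the genes with more than 1 annotated transcript. RSEM counted 8 of the 10 genes on 1 transcript each. Hadhb had 3, of which NM_145558 took 73.7%, 73.1% and 79.8% of the gene's abundance in MI4KO and 87.7%, 79.6% and 83.7% in MI4OE. NM_001289799 took 20.2% to 26.9% in MI4KO and 11.7% to 17.2% in MI4OE. Both shares are transcript estimates from short reads and were not tested. Cd36 had 5 transcripts, and NM_001159556 was the most abundant in each library, at 47.1% to 75.7%. The rest moved between the other 4 from library to library, NM_001159557 for example from 0 to 23.7%, with no separation between the groups.

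Markers of fibre type and mitochondria were set beside the 10 genes, since oxidative fibres hold more of both. MI4OE replicate 1 and then MI4OE replicate 3 were highest both in the mean relative level of the 10 genes and in the summed TPM of the slow-fibre markers. Myh7, the slow myosin heavy chain, had 0.205, 20.5 and 1.04 CPM in the MI4KO libraries and 1603, 0.280 and 162 CPM in the MI4OE libraries. Of 11 slow-fibre markers 11 were higher in MI4OE, 8 at an unadjusted p under 0.05 and 0 at an adjusted one, and Tnni1 was listed at 0 in at least 1 library. Their median log2 fold change was 5.14, and 1.83 without MI4OE replicate 1. The 12 fast-fibre markers summed to 259842 to 290775 TPM in MI4KO and to 187789, 266423 and 251330 TPM in MI4OE replicates 1, 2 and 3. Of these markers 2 were higher and 10 lower in MI4OE, with a median of -0.32, and -0.22 without MI4OE replicate 1. Among the 2 was Myh1, a fast myosin heavy chain. It had 566, 810 and 3206 CPM in the MI4KO libraries and 10167, 1305 and 5964 CPM in the MI4OE libraries. Its log2 fold change was 1.93 (adjusted p = 0.677), and 1.25 without MI4OE replicate 1. The part of fibre composition in the levels of the 10 genes was not tested.

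The mitochondrial content list, 13 genes of the citric acid cycle, respiratory chain and outer membrane, was also highest in MI4OE replicate 1. It summed to 8743, 9337 and 10342 TPM in MI4KO and 15835, 9487 and 11271 TPM in MI4OE, so the groups overlapped. Its median log2 fold change was 0.32, with 12 of 13 genes above 0 and 0 at an adjusted p under 0.05, and it was 0.03 without MI4OE replicate 1. Cs, citrate synthase, stayed between 619 and 769 CPM. The summed TPM of the 7 mitochondrial genes among the 10, from Cpt1b to Hadhb, was 0.0901, 0.120 and 0.115 of that of the mitochondrial list in MI4KO. It was 0.150, 0.108 and 0.127 in MI4OE replicates 1, 2 and 3. The groups overlapped, and the exact permutation p was 0.4 (adjusted 0.6) for this ratio, which was added after the data were seen. Its log2 difference of 0.24 was 0.12 without MI4KO replicate 1 and 0.13 without MI4OE replicate 1.

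**Figure D4:**
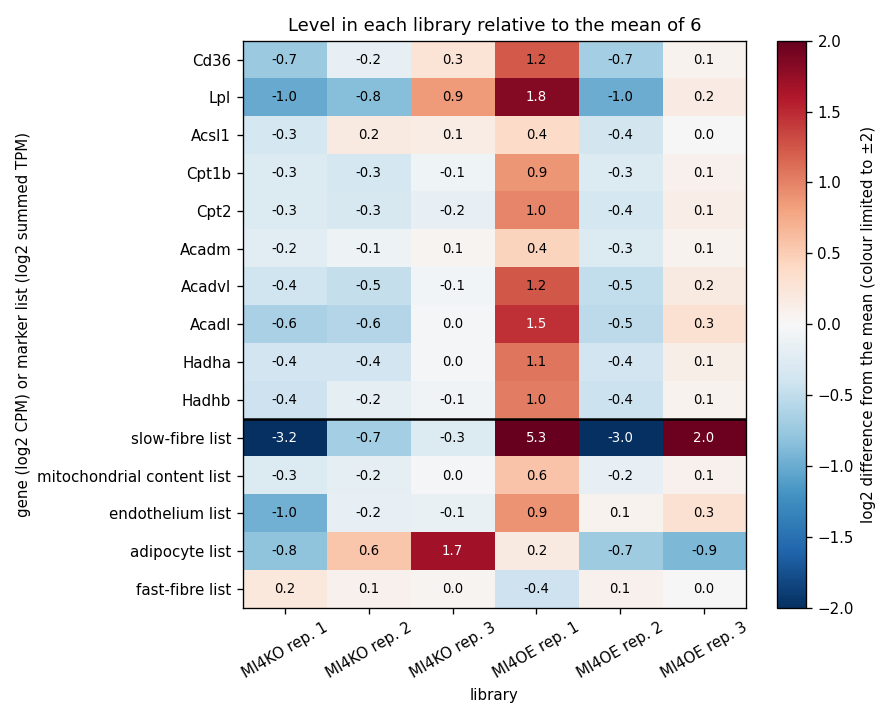
Level of the 10 genes (log2 CPM) and of 5 marker lists (log2 summed TPM) in each library, as the difference from the mean of 6 libraries, with colour limited to ±2. MI4OE replicate 1 holds the highest value of each of the 10 genes and of the slow-fibre list, and the adipocyte list is highest in MI4KO replicate 3.

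The genes whose profile over the 6 libraries was most like the mean profile of the 10 were sought among 6395 other genes with a mean of at least 10 CPM. The measure was the root mean square difference of log2 CPM after centring each gene. The nearest was Hadh, the short-chain hydroxyacyl-CoA dehydrogenase of the same pathway, at 0.0618. It had 101, 116 and 146 CPM in the MI4KO libraries and 320, 103 and 147 CPM in the MI4OE libraries. Lmod3, an actin filament nucleator of the sarcomere, followed at 0.0755, Perm1, a muscle regulator of mitochondrial genes, at 0.0923, Acss2, which activates acetate, at 0.0970, and Tpm4, a tropomyosin, at 0.105. Among the 10 genes themselves, Hadha lay nearest to the mean of the other 9, at 0.0868, and Lpl farthest, at 0.645.

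Other genes of fatty acid use were examined in 6 lists that held 73 genes, of which 70 were tested. At an adjusted p under 0.05, 0 were called by edgeR's quasi-likelihood test, against 3 by edgeR's exact test and 2 by DESeq2. Of all genes these tests called 3, 108 and 111, in the same order. An unadjusted p under 0.05 was reached by 11 of the 70, all of them past 1.5-fold, with 5 higher and 6 lower in MI4OE. Of all genes 6.64% met that criterion. The count was 5 without MI4OE replicate 1 (4.56% of all genes), 5 without MI4KO replicate 1 (4.88%) and 6 without MI4KO replicate 2 (6.33%). Without MI4OE replicate 2 it was 27 (10.2%).

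Among genes that act on lipoproteins, Vldlr and Angptl4 had lower levels in each MI4OE library than in any MI4KO library, and passed the test with DESeq2 and edgeR's exact test but not with the quasi-likelihood test. Vldlr, the very-low-density lipoprotein receptor, had 367, 411 and 279 CPM in the MI4KO libraries and 101, 136 and 90.3 CPM in the MI4OE libraries, and the groups did not overlap. On the log2 scale MI4OE differed from MI4KO by -1.69 (SE 0.24, adjusted p = 0.216) by the quasi-likelihood test. It ran from -1.88 to -1.58 when 1 library was left out. DESeq2 gave an adjusted p of 3.6e-08 and edgeR's exact test one of 3.1e-05, while the highest of the 17 alternatives was 0.912. Angptl4, a secreted inhibitor of LPL, had 6.18, 6.06 and 13.7 CPM in the MI4KO libraries and 1.57, 2.59 and 2.52 CPM in the MI4OE libraries, again without overlap. The fitted log2 difference was -1.95 (SE 0.39, adjusted p = 0.433), and the adjusted p was 0.0010 with DESeq2, 0.0023 with the exact test and at most 0.912.

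Gpihbp1, which anchors LPL on capillary endothelium, had 13.8, 12.1 and 17.2 CPM in the MI4KO libraries and 44.8, 17.97 and 23.5 CPM in the MI4OE libraries. The groups did not overlap, the log2 fold change was 0.999 (adjusted p = 0.550), and it was 0.53 without MI4OE replicate 1. Gpihbp1 stood also on the endothelial list and is part of its summed TPM. Fabp3, the muscle fatty acid binding protein, had 207, 148.7 and 378 CPM in the MI4KO libraries and 2676, 163 and 484 CPM in the MI4OE libraries. Its log2 fold change was 2.18 (adjusted p = 0.654), and 0.40 without MI4OE replicate 1. Over the 14 tested genes of uptake and activation the median was 0.24 on the log2 scale, with 9 higher and 5 lower, and -0.06 without that library.

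The other 17 genes of mitochondrial oxidation had a median log2 fold change of 0.48, with 15 higher and 2 lower, and 0.08 without MI4OE replicate 1. Ech1, an auxiliary isomerase, had 166, 125 and 239 CPM in the MI4KO libraries and 828, 132 and 238 CPM in the MI4OE libraries (adjusted p = 0.730). Acot2, a mitochondrial acyl-CoA thioesterase, had 12.8, 13.9 and 22.9 CPM in the MI4KO libraries and 84.1, 18.3 and 26.5 CPM in the MI4OE libraries (adjusted p = 0.626). The carnitine shuttle list had a median of 0.18 over 8 tested genes, with 6 higher and 2 lower, and 0.06 without that library. Crat, carnitine acetyltransferase, had a log2 fold change of 0.02 (SE 0.18), and Cpt1c, the brain form, was under 1 CPM in each library and had 1.24 (adjusted p = 0.556).

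The peroxisomal list stood near 0, with a median of 0.03 on the log2 scale over 13 genes, of which 8 were higher and 5 lower, and -0.06 without MI4OE replicate 1. Abcd2, a peroxisomal importer of fatty acids, had 36.2, 51.9 and 55.4 CPM in the MI4KO libraries and 21.7, 34.5 and 34.4 CPM in the MI4OE libraries, without overlap. The fitted difference was -0.66 on the log2 scale (adjusted p = 0.584). Acaa1b, a peroxisomal thiolase, had a mean of 1.05 CPM in MI4KO and 0.144 CPM in MI4OE, where 3 counts correspond to 0.101 to 0.148 CPM. The adjusted p was 0.495, and over the alternatives it ran from 0.0419 with the exact test to 0.912. Acaa1b and Acaa1a are near-identical copies, as are Acot1 and Acot2, so the division of their reads by RSEM is uncertain.

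The 12 regulators had a median of -0.22 on the log2 scale, with 5 higher and 7 lower, and -0.19 without MI4OE replicate 1. Pparg, the nuclear receptor of adipocytes, had 1.76, 6.26 and 7.76 CPM in the MI4KO libraries and 2.80, 1.68 and 1.94 CPM in the MI4OE libraries (adjusted p = 0.626). Lpin1, a phosphatidate phosphatase and coactivator, had 424, 309 and 233 CPM in the MI4KO libraries and 157, 234 and 192 CPM in the MI4OE libraries (adjusted p = 0.578). Of 10 genes that respond to PPAR in muscle, 5 were higher and 5 lower, with a median of 0.07, and -0.18 without MI4OE replicate 1. Among them Acot1, a cytosolic thioesterase, had 0.123, 0.0792 and 0.940 CPM in the MI4KO libraries and 7.08, 0.315 and 1.41 CPM in the MI4OE libraries (adjusted p = 0.654).

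**Figure D5:**
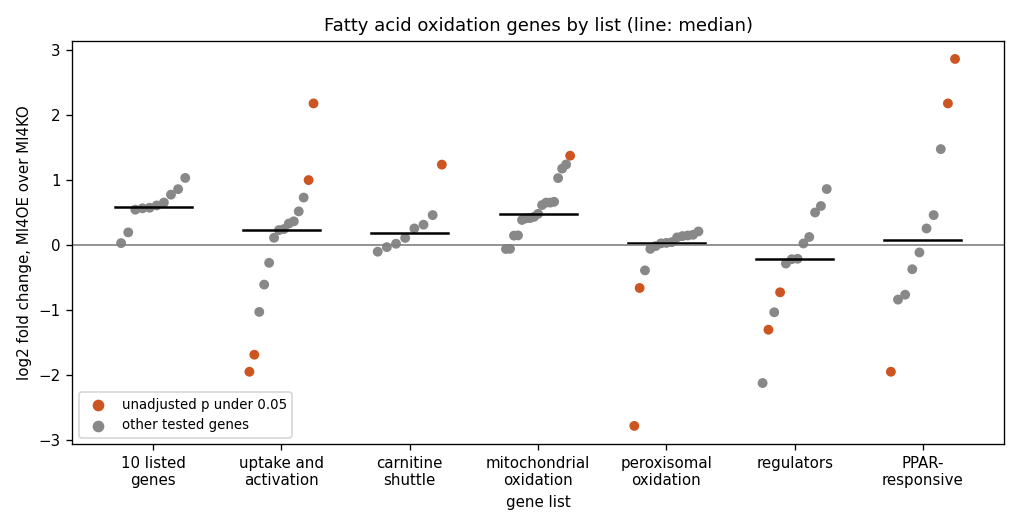
Log2 fold change of MI4OE over MI4KO for each tested gene of the 10-gene list and of the 6 related lists, with the list's median as a line and genes at an unadjusted edgeR p under 0.05 in orange. The 10 genes have a median of 0.59 and no orange point, and 11 related genes are orange, 5 above and 6 below 0. Angptl4, Fabp3, Slc25a20 and Cpt1a appear in 2 lists each.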

How the data were processed

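RNA-seq libraries of GAS muscle were made with a stranded mRNA kit, sequenced as single reads and processed by the authors. Their processing notes name bcl2fastq 2.17, Bowtie2 2.1.0 with UCSC transcripts as the reference, and RSEM 1.2.15. The genome build was not given in the sources used here. The authors deposited unnormalized expected counts for genes and transcripts, the deposited TPM values are adjusted for length, and the deposited isoform percent is each transcript's share of its gene. RSEM divides reads between similar transcripts, so the levels of near-identical genes are uncertain. The authors also deposited tables of their own comparison with fold changes, p-values and scaled CPM, which were not used.

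The 10 genes were taken by symbol. Expected counts were rounded and fitted over the whole table with edgeR 4.0.16 in R 4.3.3, after filterByExpr with a minimum count of 10 and a minimum total of 15, which left 12660 of 24054 genes, with TMM scaling. MI4OE was compared with MI4KO by the quasi-likelihood test with Benjamini-Hochberg adjustment over all genes tested. Standard errors were taken from the fitted difference and its F statistic, and intervals are at 95%. The gene tables and the count table differed in 0 genes per library. Ratios of TPM were compared by exact two-sided permutation tests over 20 splits. A count of 3 corresponds to 0.101 to 0.148 CPM. The edgeR p-values set a group difference against a spread estimated from these libraries, and the permutation p-values rank a difference among the 20 splits. Both rest on these libraries only.

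The 10 genes and the lists were chosen with earlier results of these data known. Besides the 10 genes, Irf4, Myh7, Adipoq, Pecam1, list genes with an unadjusted p under 0.05 (with genes of highest TPM added up to 2 where a list had fewer than 2), and the 5 genes of most similar profile were named. Acta1, Cs, Tnni1, Myh1, Adrb3, Fabp4, Plin1, Cidec, Cfd, Lep, Retn, Aqp7, Slc25a20, Cpt1a and ChkbCpt1b were named after their values were seen. Promoter sequences and their coordinates are from RefSeq on GRCm38.p6. The result was recomputed with DESeq2 1.42.0 and edgeR's exact test, without a filter or with a mean CPM of 1 or more, with RLE factors, with total counts alone, with TMM that left out the 100 most abundant genes, with limma 3.58.1 on log2(TPM + 1) and log2(TPM + 0.1), and without each library. A fit with bias-adjusted deviances and one without both MI4KO replicate 3 and MI4OE replicate 1 were added after the data were seen.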

Additional observations from a re-analysis of the deposited data

How the results depend on the processing

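Across 17 alternatives for each of the 10 genes, 0 of 170 values passed an adjusted p of 0.05, and 164 kept their direction. The adjusted p ran from 0.296 to 1. The 6 reversals were of Acsl1, which ran from -0.18 to 0.19 when 1 library was left out and was -0.11 without both MI4KO replicate 3 and MI4OE replicate 1, and of Cd36 (-0.10 to 0.91), Lpl (-0.22 to 1.70) and Acadm (-0.0095 to 0.35). The number of the 10 genes with a log2 fold change above 0 ran from 6 to 10 in these fits, and by mean TPM it ran from 7 to 10. The median of the 10 genes ran from 0.10 without MI4OE replicate 1 to 0.89 without MI4OE replicate 2. With total counts it was 0.69, where the median of all genes was 0.0896.

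By the 1.5-fold criterion 0 of the 10 genes were called, against 1, Acadl, with no filter (6.71% of all genes), with the exact test (7.87%) and with DESeq2 (7.62%). Leaving out 1 library gave 0 to 6, and the 6 without MI4OE replicate 2 were Cpt1b, Cpt2, Acadvl, Acadl, Hadha and Hadhb, when 10.2% of all genes were called. The 11 related genes became 7 at a mean CPM of at least 1, 6 with limma on log2(TPM + 1), 7 on log2(TPM + 0.1), 13 with no filter, 13 with the exact test, 16 with DESeq2, and 5 to 27 when 1 library was left out. At an adjusted p under 0.05, 3 related genes were called with the exact test (Angptl4, Vldlr and Acaa1b) and 2 with DESeq2 (Angptl4 and Vldlr). Of all genes 3 were called, 108 with the exact test, 111 with DESeq2 and 1 without MI4KO replicate 1. The causes were not tested, except that fits without a library rest on fewer samples.

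The log2 ratio of Cpt1b to Cpt2 differed between groups by -0.04 and by -0.0894 to 0.0072 without 1 library, and that of Cd36 to Lpl by -0.25 and by -0.60 to 0.0244. No paired analysis was possible because no label links a MI4KO library to a MI4OE library.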
